A study of Mus musculus with 6 samples.

Results

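The Ly6 family surface proteins are small proteins built on a compact, disulfide-rich fold, most of them held in the outer membrane by a lipid (GPI) anchor and a few of them secreted. The genes Ly6d, Ly6k, Lypd3, Slurp1, Plaur, Ly6a, Ly6e and Ly6c1 are described here, 8 of the 22503 genes tested. They were taken by name, through the accession of each gene probe on the array. The names were selected from the measured ratio between genotypes in these same samples, so the ratios of these 8 genes are given as a description and without a test. All 8 had a probe, 9 probes in all, because Ly6c1 had 2 and the other 7 had 1 each. All 8 passed the filter on dim probes, which required that the channel of 1 genotype exceed background clearly, on arrays A and B alike, in 2 or more of the pairs. Slurp1 passed through the RANK+/+ channel, being well above background there on 5 of 6 arrays and in the RANK-/- channel on 2 of 6. The other 7 were well above background in both channels of 6 of 6 arrays.

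RNA came from MMTV-PyMT mammary tumors, in which the polyomavirus middle T oncogene is driven by the mouse mammary tumor virus promoter, and both genotypes carried this transgene. RANK (gene Tnfrsf11a), the receptor for RANK ligand, was intact in RANK+/+ tumors and disrupted throughout the donor animal in RANK-/- tumors. Cells of late carcinomas were grown as orthotopic transplants in the mammary gland of young adult, syngeneic C57BL/6 females that had their own RANK, the tumors were digested, and live CD45- cells, which lack the common leukocyte surface protein, were sorted. The 3 pairs of RNAs, each with 1 RANK-/- and 1 RANK+/+ RNA, were hybridized on 2-color arrays, 2 arrays (A and B) per pair and 6 in all. Whether separate tumors gave the 3 RNAs of each genotype is not stated in the labels, so p-values measure only the spread between these 3 pairs. RANK-/- RNA was in Cy5 in pair 1 and in Cy3 in pairs 2 and 3, so dye arrangement and the step from pair 1 to the others cannot be told apart. This arrangement is that of the labels, which give arrays A and B of a pair the same dyes, whereas the published methods speak of swapped dyes for each sample. Tnfrsf11a went against its label, since its signal was the higher one each time in RNA labeled RANK-/- (log2 ratios of 2.03, 1.15 and 1.76). The part of the gene that was removed is not given in the sources used here, and neither is where the probe lies relative to it. Each direction below therefore rests on the channel labels as they stand. In RNA of bulk cells, fewer cells of a type and less RNA per cell cannot be told apart.

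Members of the family serve different roles. Ly6d marks early B cell progenitors and is made by stratified and glandular epithelia. Ly6a (Sca-1) is used to mark stem and progenitor cells and is also made by endothelium and fibroblasts, Ly6c1 is a surface protein of monocytes and endothelium, and Ly6e is a widely expressed member that interferon induces. Ly6k is best known from germ cells and carcinomas. Lypd3 (C4.4A) belongs to stratified squamous epithelium, Slurp1 is a secreted member that acts on nicotinic acetylcholine receptors, and Plaur (uPAR) is the receptor that holds urokinase, the enzyme that activates plasminogen, at the cell surface.

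Promoter sequence could be read for Plaur, Lypd3 and Ly6c1, that is for 3 of the 8 genes, from a RefSeq table of assembly GRCm38.p6. Those of Plaur (chr7:24462233-24462532, plus strand) and Lypd3 (chr7:24636320-24636619, plus strand) are shown because both genes lie in the same stretch of chromosome 7 and their ratios had the same sign in each of the 3 pairs. For Plaur in pair 3 that sign depended on the normalization, as described below. Each runs from 250 bases before to 50 bases after the annotated start site, and capitals mark a match to the AP-1 motif.
Plaur: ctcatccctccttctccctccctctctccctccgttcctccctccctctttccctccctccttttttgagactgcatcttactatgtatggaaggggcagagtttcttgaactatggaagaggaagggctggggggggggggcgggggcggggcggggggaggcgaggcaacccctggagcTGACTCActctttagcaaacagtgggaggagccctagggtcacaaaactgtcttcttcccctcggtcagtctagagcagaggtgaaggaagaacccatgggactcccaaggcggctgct
Lypd3: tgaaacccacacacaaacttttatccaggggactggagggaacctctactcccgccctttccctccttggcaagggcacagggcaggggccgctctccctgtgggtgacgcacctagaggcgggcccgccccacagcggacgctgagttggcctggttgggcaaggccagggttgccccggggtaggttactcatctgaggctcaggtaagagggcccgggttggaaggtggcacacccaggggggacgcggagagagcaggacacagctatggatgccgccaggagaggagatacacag
The AP-1 motif (TGANTCA), the GAS motif (TTCNNNGAA), a kB-like motif (GGGNNTTTC) and the TATA box (TATAAA) were searched on both strands. The Plaur promoter held 1 AP-1 match, TGACTCA, at positions -69 to -63 from the start site, and the Lypd3 promoter held none of the 4 motifs. AP-1 matches occurred in 7.81% of the 32851 promoters of the table, GAS matches in 8.3%, kB-like matches in 4.36% and TATA matches in 13.6%. For Ly6c1, whose sequence is not shown, the only match was TATAAA, at positions -143 to -138 from an annotated start site. All of these are matches of letters only.

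Ly6d gave less signal in RANK-/- than in RANK+/+ RNA of each pair, and by at least 2-fold each time. Its normalized log2 intensity was 10.92, 9.85 and 10.31 in RANK-/- RNA of pairs 1, 2 and 3 and 12.18, 11.21 and 12.03 in RANK+/+ RNA. The highest RANK-/- value lay below the lowest RANK+/+ value, so the genotypes did not overlap, and pair 2 gave the lowest signal of both genotypes. The log2 ratio of RANK-/- over RANK+/+ was -1.26, -1.36 and -1.72, a signal that was 2.4-, 2.57- and 3.29-fold lower, with a mean of -1.45 ± 0.24 (SD, n = 3). Single arrays ranged from -1.79 to -1.26. With median centring of the ratios in place of loess the Ly6d ratio was -1.02, -1.61 and -2.33 in pairs 1, 2 and 3. In pairs 1, 2 and 3, 1.68%, 1.12% and 0.476% of all genes had a ratio as low as that of Ly6d or lower. Of all genes, 11 (0.0489%) were lower by at least 2-fold in all 3 pairs, and Ly6d was the 1 member among them. Because Ly6d was picked on this ratio, nothing is read from that count.

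**Figure D1:**
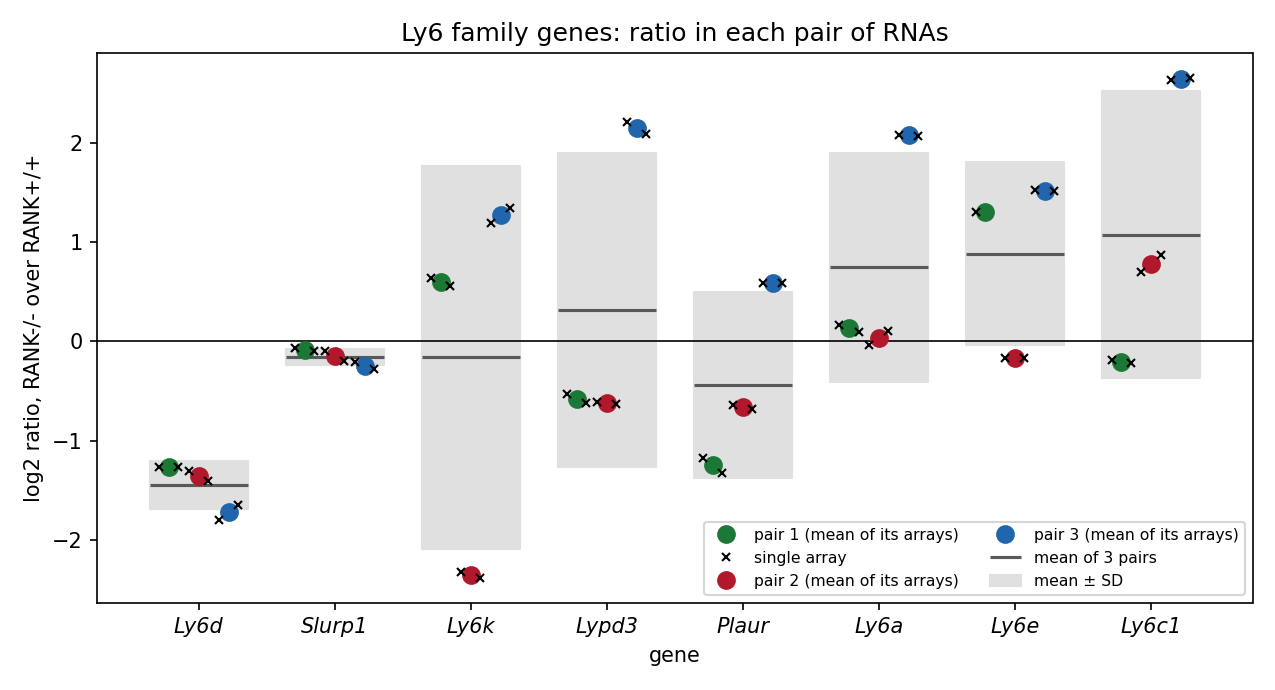
Log2 ratio of RANK-/- over RANK+/+ (vertical axis) for each of the 8 genes (horizontal axis). Filled circles are pairs 1 (green), 2 (red) and 3 (blue), crosses are single arrays, the grey line is the mean and the shaded box spans the mean ± SD (n = 3). The 3 pairs of Ly6d lie close together between -1.72 and -1.26, those of Slurp1 lie near 0, and those of the other 6 genes are spread far more widely than their arrays A and B.

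Slurp1, the secreted member, had ratios below 0 in every pair but close to it. Its log2 intensity was 6.20, 6.29 and 6.10 in RANK-/- RNA and 6.28, 6.44 and 6.35 in RANK+/+ RNA, and these ranges overlapped. The ratio was -0.08, -0.15 and -0.25, with a mean of -0.16 ± 0.08 (SD, n = 3). The signal was near background, and the mean moved to -1.10 when Agilent's processed signals were used. Most genes of nicotinic receptor subunits, listed whether or not Slurp1 acts on them, did not pass the filter, Chrna7 among them. Of 16 listed, 4 passed, namely Chrna2, Chrnb1, Chrnb4 and Chrng, and none of these had the same sign in all pairs. The largest of the 4 by mean ratio were Chrnb4 (0.46, -0.10 and 0.45) and Chrnb1 (0.29, -0.40 and -0.40).

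Ly6k had the widest spread of the 8 genes. Its log2 intensity was 8.20, 6.82 and 7.94 in RANK-/- RNA and 7.60, 9.17 and 6.67 in RANK+/+ RNA. On this normalized scale, RANK+/+ RNA of pair 2 was highest of the 6 and RANK+/+ RNA of pair 3 lowest. Without normalization, the background-subtracted signal on array A was 63.5 in RANK+/+ RNA of pair 3 and 39 in RANK-/- RNA of pair 2. The ratio was 0.60, -2.35 and 1.27, with a mean of -0.16 ± 1.92 (SD, n = 3), and 0.649% of all genes had a larger SD between pairs. Without pair 2 the mean was 0.93. In pair 2, where Ly6k was 5.1-fold lower, 0.182% of genes had a ratio as low. The size of this ratio depended on the background correction: it was -3.15 with normexp offset 0, -2.93 in the authors' series table and -3.35 with Agilent's processed signals.

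Lypd3 and Plaur, both on chromosome 7, were lower in the channel labeled RANK-/- in pairs 1 and 2 and higher in pair 3. Lypd3 had a log2 intensity of 12.28, 11.56 and 12.75 in RANK-/- RNA and of 12.86, 12.18 and 10.60 in RANK+/+ RNA. Pair 3 stood apart through its RANK+/+ RNA, the lowest of the 6. The Lypd3 ratio was -0.58, -0.62 and 2.14, with a mean of 0.32 ± 1.58 (SD, n = 3) that turned to -0.60 without pair 3. Plaur had a log2 intensity of 9.70, 9.55 and 9.88 in RANK-/- RNA and of 10.95, 10.21 and 9.29 in RANK+/+ RNA. On this normalized scale, the RANK-/- values lay within the range of the RANK+/+ values. The Plaur ratio was -1.25, -0.66 and 0.59, with a mean of -0.44 ± 0.94 (SD, n = 3), and it was -0.96 without pair 3 and -0.04 without pair 1. Its value in pair 3 depended on the normalization and was 0.04 with median centring in place of loess. Without normalization, the background-subtracted Plaur signal of pair 3 was lower in RANK-/- RNA on both arrays (692.5 against 775.5 and 700 against 877). Lypd3 stayed at 1.51 in pair 3 with median centring.

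Ly6a, Ly6e and Ly6c1, close together on chromosome 15, had a mean above 0 and their highest ratio in pair 3. Ly6a had a log2 intensity of 13.26, 12.22 and 12.52 in RANK-/- RNA and of 13.13, 12.19 and 10.44 in RANK+/+ RNA, the last being the lowest of the 6. Its ratio was 0.13, 0.03 and 2.07, with a mean of 0.74 ± 1.15 (SD, n = 3) that was 0.08 without pair 3. In pair 2 its arrays lay on either side of 0 (-0.04 and 0.11). With median centring of the ratios in place of loess, Ly6a no longer kept 1 sign and Ly6c1 did.

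Ly6e had a log2 intensity of 16.70, 15.57 and 16.65 in RANK-/- RNA and of 15.40, 15.74 and 15.13 in RANK+/+ RNA. On this normalized scale, the RANK-/- RNA was above every RANK+/+ RNA in pairs 1 and 3, and in pair 2 it was not. Without normalization, Ly6e in RANK+/+ RNA read 54535.5 in pair 3 and 36826.5 in pair 1 (array A, background-subtracted). Its ratio was 1.30, -0.17 and 1.52, with a mean of 0.88 ± 0.92 (SD, n = 3) that was 1.41 without pair 2 and 0.56 without pair 3. The value of pair 1 came from array A alone, because the scanner software marked the spot on array B as an outlier. With that spot kept, it read 1.40 there. With median centring in place of loess the ratios of Ly6e were 1.49, -0.75 and 0.48, so that pair 1 and not pair 3 was highest.

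Ly6c1 showed the highest ratio of the 8 genes in any pair, in pair 3. Its brighter probe had a log2 intensity of 14.03, 13.60 and 13.82 in RANK-/- RNA and of 14.23, 12.82 and 11.18 in RANK+/+ RNA. On this normalized scale, the 3 RANK-/- values were close together (SD 0.21) and lay within the range of the RANK+/+ values (SD 1.53). Without normalization, the background-subtracted signal on array A was 17395, 10176.5 and 10882 in RANK-/- RNA of pairs 1, 2 and 3. The highest RANK+/+ value was 16168, in pair 1. The ratio was -0.20, 0.78 and 2.64, with a mean of 1.07 ± 1.45 (SD, n = 3), and 0.191% of genes were as high in pair 3, where the signal was 6.24-fold higher in RANK-/- RNA. Without pair 3 the mean was 0.29, and without pair 1 it was 1.71. The second Ly6c1 probe gave -0.57, 1.09 and 2.16, with a mean of 0.89 ± 1.37 (SD, n = 3). Ly6c1 has near-identical neighbors, among them Ly6c2, for which no probe was matched by accession, and their RNA may be part of both signals.

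**Figure D2:**
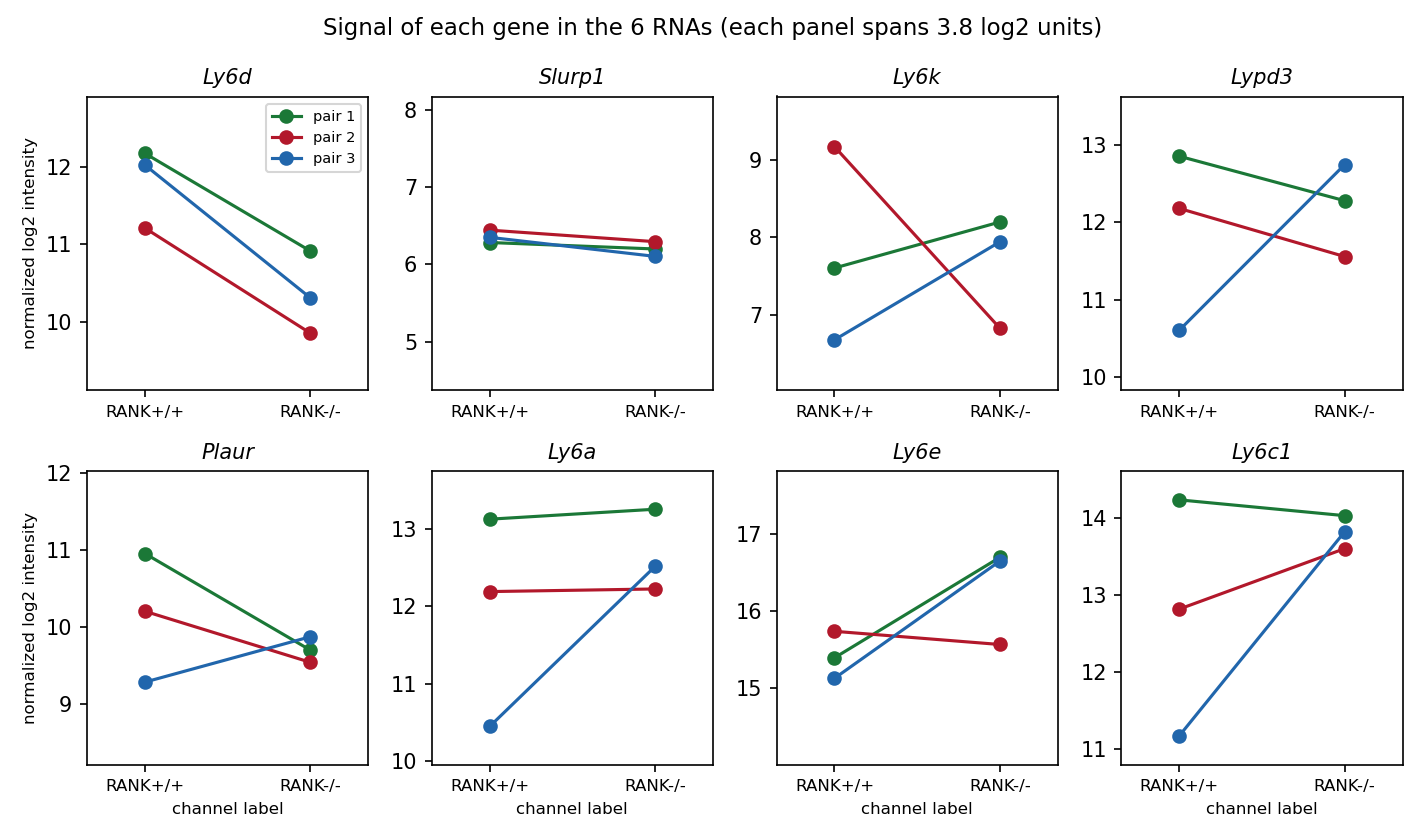
Normalized log2 intensity (vertical axis) of each gene in the channels labeled RANK+/+ and RANK-/- (horizontal axis), 1 panel per gene and 1 line per pair (green, red and blue for pairs 1, 2 and 3). The 3 lines of Ly6d all fall and its RANK-/- values lie below its RANK+/+ values, whereas the RANK+/+ value of pair 3 is the lowest of the 6 for Ly6a, Ly6e, Ly6c1, Ly6k, Lypd3 and Plaur. Without normalization, which leaves dyes and arrays unadjusted, that value was not the lowest for Ly6e, Ly6k and Plaur. Levels of different genes come from different probes and cannot be compared.

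Seen over the 8 genes, RANK-/- and RANK+/+ values were separate for 1 gene, Ly6d. All 3 RANK-/- levels lay below all 3 RANK+/+ levels for 848 of 22501 genes with a value in every pair (3.77%) and above them for 830 (3.69%). The members Ly6d and Slurp1, 2 of 8, were lower in all 3 pairs, against 9.65% of all genes, and 1, Ly6a, was higher in all 3, against 9.95%. Slurp1 was near background and passed the filter only through the RANK+/+ channel, the one in which it was higher. Its direction is therefore tied to its passing, and nothing is read from its place in this count. Members that were at least 2-fold apart numbered 3 of 8 in pair 1 (6.5% of all genes), 2 of 8 in pair 2 (4.82%) and 6 of 8 in pair 3 (7.92%). Of the 6 in pair 3, 5 were higher (Ly6a, Ly6e, Ly6c1, Ly6k and Lypd3) and 1 was lower (Ly6d). These counts and the medians that follow are those with loess. With median centring in its place, the pair 3 ratios of Ly6e (0.48) and Ly6k (0.97) fell below 2-fold. Those of Ly6a, Lypd3 and Ly6c1 shrank to 1.45, 1.51 and 1.95. The median ratio of the members was -0.14, -0.40 and 1.39 in pairs 1, 2 and 3, beside 0.02, -0.01 and 0.00 for all genes. Since the members were picked on this contrast, these counts only describe them. The SD of the level was larger among RANK+/+ than among RANK-/- RNAs for 5 of 8 members (Ly6a, Ly6c1, Ly6k, Lypd3 and Plaur) and for 50.7% of all genes. Both dyes occur within each genotype, so these levels also hold any dye effect, which cannot be told apart from the difference between pair 1 and the others.

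Arrays A and B of a pair differed little beside this. Across all genes they correlated with an r of 0.973 to 0.983, and the largest difference between them for Ly6d was 0.15. The median SD between pairs over all genes was 0.33, below that of every member except Ly6d and Slurp1.

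The position of the genes was set beside their ratios. In the order of the RefSeq annotation, 6 members lie on chromosome 15 in the stretch from Psca to Gpihbp1. Counting only genes with a probe or of the listed family, it holds 25 genes, of which 16 passed the filter. Ly6d and Ly6k are neighbors among these 25. Ly6d was lower in all pairs, whereas Ly6k was higher in pairs 1 and 3. Farther along come Ly6e, Ly6i, Ly6a and Ly6c1. Ly6i, between Ly6e and Ly6a, had ratios of 0.05, 0.44 and 0.14 and lacked the high value in pair 3. A transcribed pseudogene of the same stretch, 9030619P08Rik, had -0.51, 0.32 and 2.10, an order like that of Ly6c1, and was picked out after its values were seen. At the near end, Lypd2 had -0.07, -0.17 and 0.03 and Lynx1 had 0.35, -0.34 and -0.54. On chromosome 7, 19 genes with a probe run from Lypd5 to Cd177 and 14 of them passed. The 2 members in it do not adjoin: Plaur is followed by Cadm4 (-0.32, -0.55 and -0.01), and Lypd3 follows Phldb3 (0.19, -0.58 and -0.10).

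**Figure D3:**
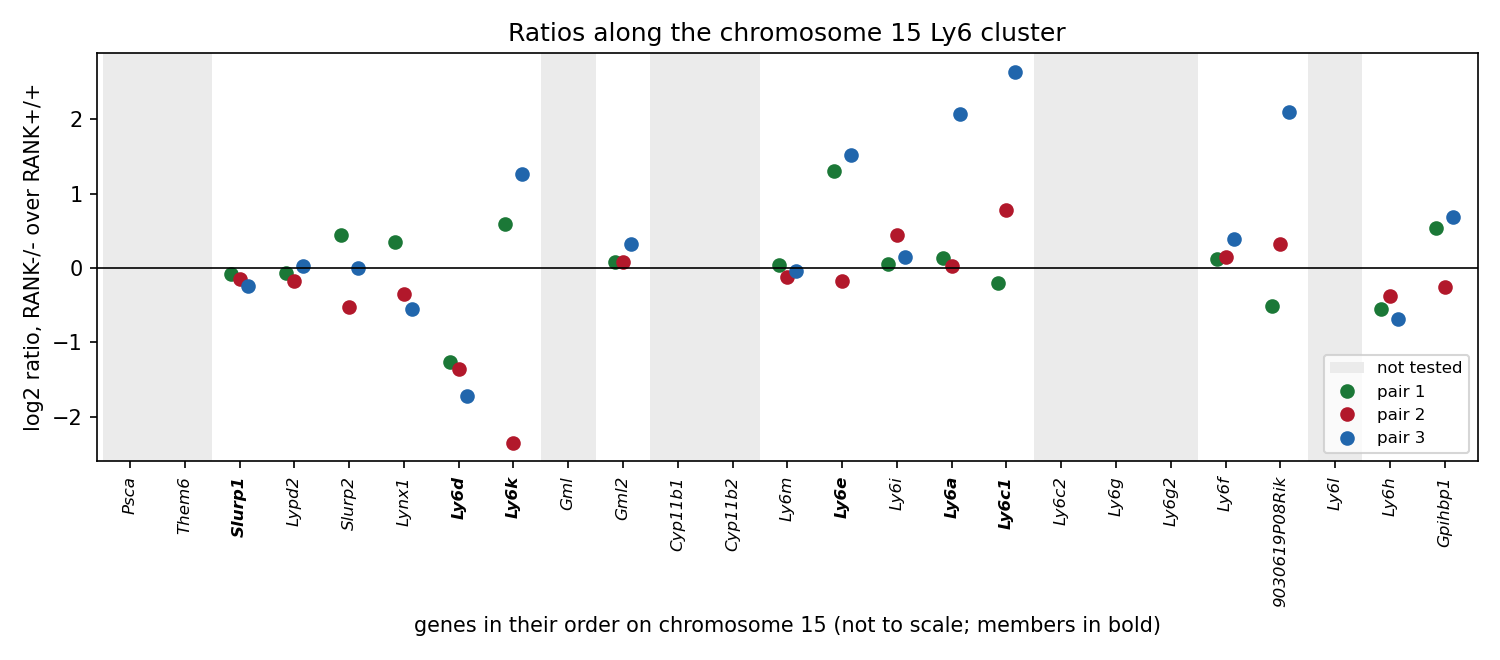
Log2 ratio of RANK-/- over RANK+/+ (vertical axis) for 25 genes in their order on chromosome 15 (horizontal axis, not to scale, members in bold). Only genes with a probe or of the listed family are shown. Circles are pairs 1 (green), 2 (red) and 3 (blue), and grey columns mark the genes that were not tested. Ly6d is the 1 gene of the stretch with all 3 circles below -1, and the blue circles of Ly6e, Ly6a, Ly6c1 and 9030619P08Rik lie above 1.5.

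The other genes of the Ly6/uPAR family were listed whatever their own values, although with earlier results of these data known, and were tested with all genes by limma. Of 41 listed, 35 had a probe and 21 passed the filter. None passed (0 of 21), and the same held for all 22503 genes tested (0, or 0%, with no adjusted p below 1.00). The unadjusted p was under 0.05 for 2 of 21, Ly6h and Cd177, and for 647 of all genes (2.88%). In the list, 4 were higher in all 3 pairs (19%, against 9.95% of all genes), 1 was lower (4.76%, against 9.65%) and the others were mixed. Their median ratio was 0.05, -0.12 and 0.25 in pairs 1, 2 and 3.

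Cd177, a surface protein of neutrophils, had ratios of 1.10, 1.20 and 0.25, with a mean of 0.85 ± 0.52 (SD, n = 3; limma adjusted p 1.00, unadjusted 0.0223). Ly6h, best known from brain, had -0.55, -0.38 and -0.69, with a mean of -0.54 ± 0.16 (limma adjusted p 1.00, unadjusted 0.0188). The dimmer Ly6h probe gave -0.20, 0.01 and -0.30, so its sign in pair 2 differed. The remaining genes of 1 sign throughout were Ly6f, Ly6i and Gml2, with mean ratios of 0.22 ± 0.15, 0.21 ± 0.21 and 0.16 ± 0.14 (limma adjusted p 1.00 for each). Their signals were dim, with mean log2 levels of 6.50, 6.59 and 6.73, beside 6.28 for Slurp1. Cd59a, which shields cells from complement, had the largest spread of the 21, with 0.26, -1.27 and 1.67 (mean 0.22 ± 1.47). Lypd6b came next, with -1.78, -0.11 and 0.14 (mean -0.58 ± 1.04). Neither passed (limma adjusted p 1.00). Lypd6b was dim too, with a mean log2 level of 6.69, and its RANK+/+ channel was well above background on only 4 of 6 arrays. Its mean was -0.98 with Agilent's processed signals. With Agilent's processed signals the means of Cd177, Ly6f, Ly6i and Gml2 were farther from 0, at 1.32, 0.98, 0.72 and 0.33, and that of Ly6h was -0.86 with normexp offset 0. Leaving out pair 3 turned the mean of Cd59a to -0.50, and leaving out pair 1 turned that of Lypd6b to 0.01.

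Genes whose 3 ratios came closest to those of a member were then sought among 14671 other genes with a RefSeq symbol, by the root mean square (RMS) of the differences over the 3 pairs. With 3 values per gene such likeness is a description. Nearest to Ly6d was Armcx2 (RMS 0.08), with ratios of -1.32, -1.38 and -1.59. Gjb6, a connexin of stratified epithelia, followed (RMS 0.22). Next were Alox5ap, which is needed for leukotriene synthesis (RMS 0.35), the potassium channel subunit Kcne3 (RMS 0.37) and Heph, a copper-dependent ferroxidase (RMS 0.39). No other member came near Ly6d, since the closest was Slurp1 at an RMS of 1.29.

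Nearest to Lypd3 were Krt8, a keratin of simple epithelium (-0.41, -0.55 and 2.08, RMS 0.11), the claudin Cldn4 (RMS 0.17) and Arg1 (RMS 0.18). Nearest to Plaur was Anxa1, the phospholipid-binding annexin A1 (-1.12, -0.74 and 0.57, RMS 0.09), before Pgm2l1 (RMS 0.11) and the membrane protease Tmprss13 (RMS 0.12). Ly6c1 lay nearest to the interferon-inducible Ifi211 (-0.31, 1.00 and 2.52, RMS 0.15), the complement gene C2 (RMS 0.16) and the monocyte chemokine Ccl7 (RMS 0.17). Ly6a lay nearest to Pcx (RMS 0.13), Irak3 (RMS 0.21) and Slpi (RMS 0.22), Ly6e to Cotl1 (RMS 0.14), Lgals1 (RMS 0.14) and Gpr146 (RMS 0.15), and Ly6k to Agtr1a (RMS 0.25), Sox11 (RMS 0.29) and Pwwp3b (RMS 0.36). For Slurp1 they were Exd2, Stam2 and P3h1, at an RMS of 0.02 for each. Among the members, the closest pairs were Ly6a with Lypd3 (RMS 0.56) and Ly6a with Ly6c1 (RMS 0.58).

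**Figure D4:**
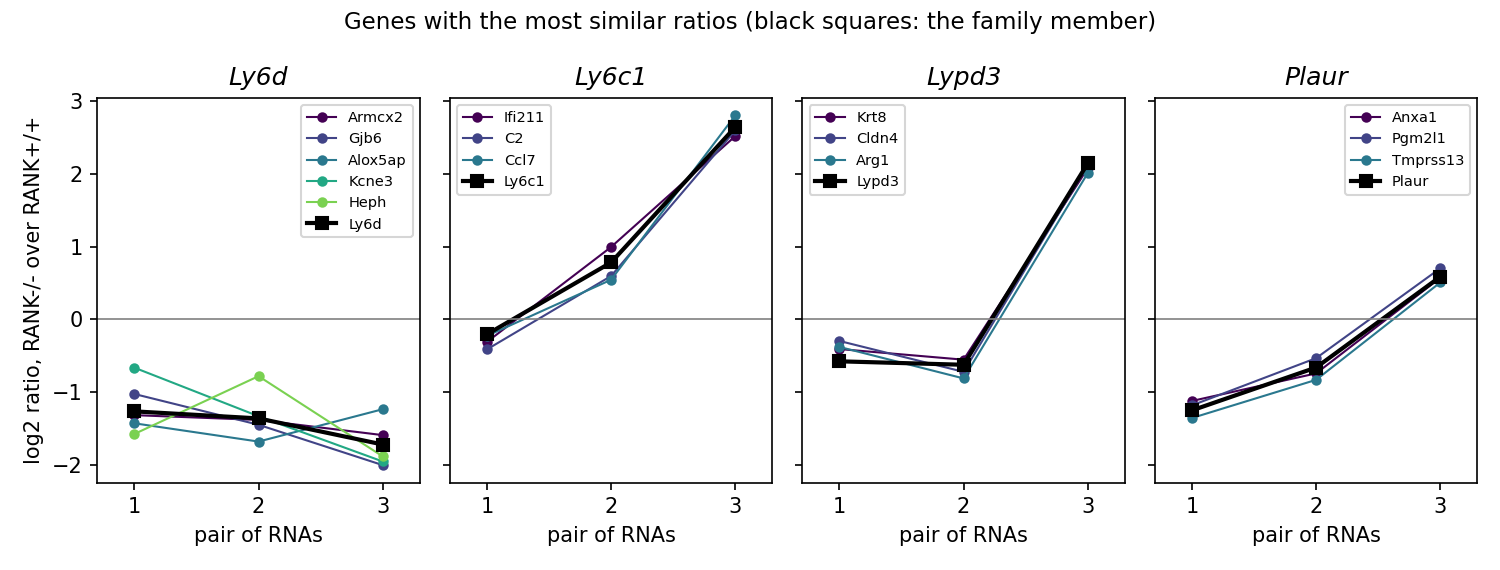
Log2 ratio of RANK-/- over RANK+/+ (vertical axis) in pairs 1, 2 and 3 (horizontal axis) for Ly6d, Ly6c1, Lypd3 and Plaur (black squares) and the genes nearest to each (colored circles). Lines join the points of 1 gene and stand for no order of the pairs. The genes beside Ly6d stay below 0 in every pair, and those beside Ly6c1, Lypd3 and Plaur share a highest value in pair 3.

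Urokinase and the other genes of plasminogen activation, the pathway of Plaur, were examined next. Of 20 listed, 18 passed the filter. Plau, which encodes urokinase, had ratios of 0.55, -0.20 and -0.0045. In the list 2 genes were lower in all pairs (11.1%, against 9.65% of all genes) and none (0) higher (9.95% of all genes). S100a10, a plasminogen receptor subunit, had a mean of -0.54 ± 0.39 and Itga5, an integrin subunit, one of -0.25 ± 0.25 (limma adjusted p 1.00 for both). The median of the 18 genes was -0.04, -0.21 and 0.08.

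Genes of stratified epithelium, to which Ly6d and Lypd3 are known to belong, were mostly lower in pairs 1 and 2. The 16 genes that passed, of 23 listed, had a median ratio of -1.25, -0.75 and 0.05. Of these, 3 were lower in all pairs, namely the keratins Krt16 (mean -1.71 ± 1.14), Krt15 (-0.99 ± 0.28) and Krt10 (-0.89 ± 0.57), and none (0) was higher in all. They did not pass (limma adjusted p 1.00). The share lower in all pairs was 18.8%, against 9.65% of all genes. The rest were mixed, for example Krt5 (-1.41, -2.13 and 0.33) and Trp63 (0.28, -0.02 and 0.17). The mean level of the 16 ranged from 9.46 to 9.99 in RANK-/- and from 9.76 to 10.98 in RANK+/+ RNA. Ivl, Krt1, Dsg3 and Dsc3, which define this epithelium, were among those that did not pass the filter. Among 16 luminal genes, Foxa1 was lower in all pairs (mean -1.24 ± 0.76) and Esr1 higher (0.34 ± 0.33), and the median was 0.17, -0.61 and 0.50. Among 11 basal genes, Lgr5 was lower (-0.36 ± 0.45) and Oxtr higher (0.89 ± 0.89), and the median was 0.07, -0.10 and -0.01. Krt5 and Krt14 stand in both the stratified and the basal list.

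Interferon induces Ly6e and Ly6a, and 22 of 23 listed interferon response genes passed the filter. Their median was -0.70, 1.44 and 0.50 in pairs 1, 2 and 3. Irf1, a transcription factor that interferon induces, was higher in all pairs, alone in the list (0.29, 1.53 and 1.63, mean 1.15 ± 0.75, limma adjusted p 1.00). Most genes of the list had their highest ratio in pair 2, for example Cxcl10 (-1.57, 3.58 and 1.75), whereas Ly6a and Ly6c1 had theirs in pair 3. The exceptions, highest in pair 3, were Irf1, Oas2 (-1.03, 0.98 and 1.16) and Gbp2, an interferon-induced GTPase (-0.09, 1.82 and 2.13). These genes were picked out after their values were seen. The part of interferon in the ratios of the members was not tested.

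Markers of other cells in the CD45- fraction were set beside the members. All 12 fibroblast genes passed the filter, and their median ratio was 0.19, 0.50 and 1.69, highest in pair 3 as for Ly6a and Ly6c1. Of these, 5 were higher in all pairs and none (0) lower, with Col1a2 (mean 1.28 ± 0.96), Col1a1 (0.97 ± 0.86), Col5a1 (0.70 ± 0.75) and Pdgfra (0.54 ± 0.62) the foremost (limma adjusted p 1.00 for each). The share higher in all pairs was 41.7%, against 9.95% of all genes. The rest were mixed, with Dcn (-0.71), Lum (-0.23), Col3a1 (-0.08) and Fap (-0.0016) below 0 in pair 1. Pdgfrb (-1.03), Postn (-0.71) and Thy1 (-0.29) were below 0 in pair 2. The mean level of the 12 ranged from 12.07 to 12.77 in RANK-/- and from 11.14 to 12.04 in RANK+/+ RNA. Of 16 endothelial genes 15 passed, with a median of 0.02, -0.13 and 0.55. Cldn5, a claudin of endothelium, was higher in all pairs (0.55 ± 0.36). The mean level of the 15 ranged from 7.97 to 8.32 in RANK-/- and from 7.72 to 8.27 in RANK+/+ RNA, and Erg was not tested. Of 18 leukocyte genes 13 passed, and Cd3g, Cd8a, Cd79a and Cxcr2 were among those that did not. Ptprc, which encodes CD45, had -0.93, 0.10 and 0.14 and was well above background on 5 RANK-/- and 4 RANK+/+ arrays of 6. The leukocyte median was -0.28, 0.07 and 0.07, and the mean level ranged from 8.80 to 9.27 in RANK-/- and from 8.71 to 10.13 in RANK+/+ RNA. S100a9, a neutrophil gene, was lower in all pairs, with ratios of -4.12, -0.04 and -0.25, so that pair 1 stood apart. Its RANK-/- signal cleared background clearly on only 4 of 6 arrays, which leaves its sizes uncertain. S100a8 of the same list, with clear signal for both genotypes on all 6 arrays, had -3.99, 0.07 and -0.11. Cd177, which is not in this list, went the other way in pair 1 (1.10). Cd3e (0.02), Cd4 (0.11), Csf3r (0.42) and Itgam (0.49) of the list were also above 0 there. All other tested genes of the list were below 0 in pair 1, among them Laptm5 (-0.98), Coro1a (-0.92) and Csf1r (-0.65). The cause of the pair 1 values was not tested. Cd3e was higher in all by little (mean 0.08 ± 0.11). The part of these cells in the ratios of the members was not tested.

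**Figure D5:**
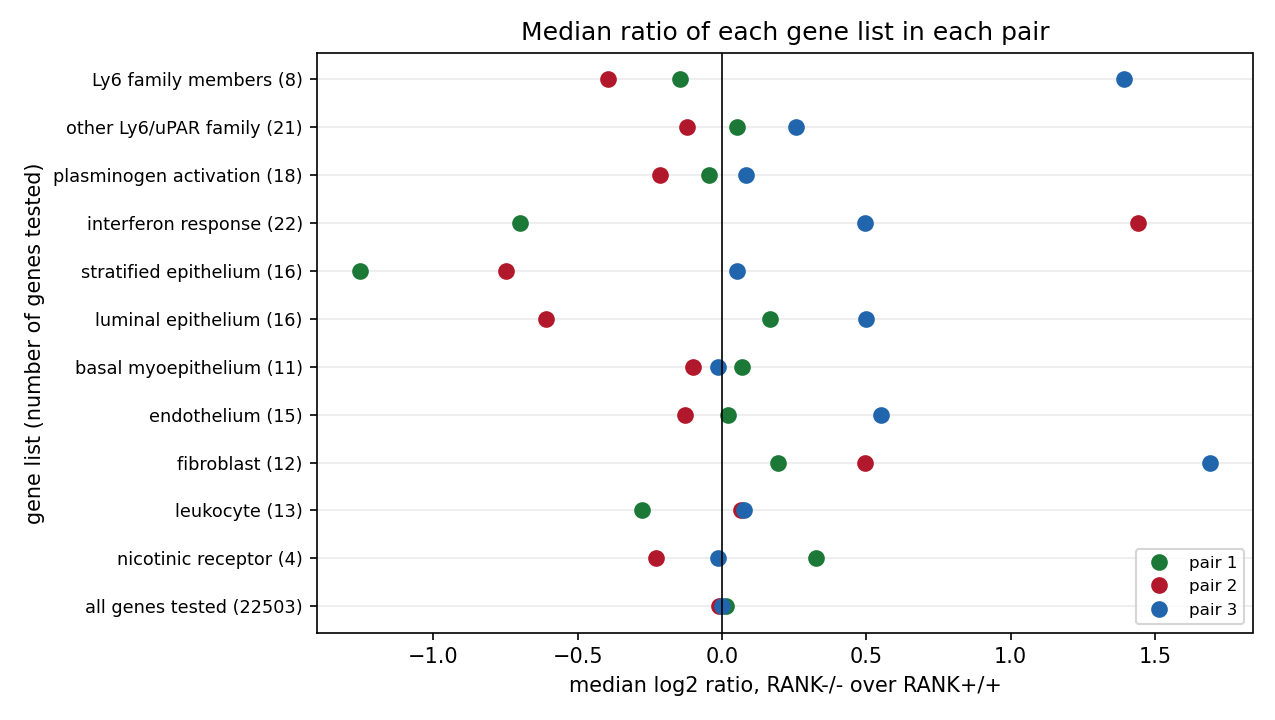
Median log2 ratio of RANK-/- over RANK+/+ (horizontal axis) of each gene list (vertical axis, with the number of genes tested) in pairs 1 (green), 2 (red) and 3 (blue). The members and the fibroblast genes have their highest median in pair 3, at 1.39 and 1.69, the interferon response genes in pair 2, at 1.44, and the medians of all genes lie near 0.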

How the data were processed

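The deposited scanner tables held each spot's median intensity and local background intensity in both dyes, which the authors extracted with Feature Extraction 10.7.3.1 without normalization. The deposited series table held log2 ratios normalized by the authors. Set against the scanner values it ran as RANK-/- over RANK+/+ (r 0.948 to 0.961), and it served as an alternative, as did the processed intensity. The log10 ratios that the authors also deposited were not used as results. Median signals were corrected with normexp (offset 50) in limma 3.58.1 under R 4.3.3 with data.table (version 1.17.8), then normalized by intensity loess and Aquantile. Control spots and spots marked as outliers (212 to 260 per array) were removed, and 0 spots were saturated. Spots of 1 probe were averaged, as were arrays A and B of a pair. Of 55681 gene probes, 30230 (54.3%) passed the filter, and the brightest stood for its gene. Symbols came from RefSeq (GRCm38.p6) by accession, for 28026 probes. The array design names another build, so no gene coordinates from it are given.

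Genes were tested by limma on the 3 pair ratios (two-sided, Benjamini-Hochberg, threshold 0.05). With 3 pairs the smallest p of an exact sign-flip test is 0.25. The number of arrays limits the precision. The rank product test of the study, which resamples over genes, was not run. The pairing comes from the 2 RNAs that share an array. The members and lists were chosen with earlier results of these data known. The genes named were the members, Tnfrsf11a, other family genes with 1 sign in all pairs (at most 10) and the 2 of largest spread, the 5 genes nearest Ly6d and 3 nearest each other member, and at most 4 genes with 1 sign per further list (else the 2 of largest mean). A few genes were added as markers or neighbors. The steps were tested with known changes put into the signals of probes of middle brightness, and limma on simulated ratios. The simulated spread was smaller than the median SD between pairs of these data. Dim probes and widely spread genes were therefore not covered. Figures were drawn with matplotlib.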

Additional observations from a re-analysis of the deposited data

How the results depend on the processing

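The count of genes past the limma threshold was 0 under every alternative except 1. With the 6 arrays entered singly and the pair as a random block (consensus correlation 0.962) it was 13. With no replicate block, that is with the channels as unpaired samples, it was 0. The members lower in all pairs stayed 2 except with the filter that asked for all 3 pairs, where Slurp1 was not tested and the count was 1, and without single pairs, where it ranged from 2 to 4. The members higher in all pairs were 0 with array A alone and ranged from 1 to 3 without single pairs. Without pair 1 Ly6c1 joined Ly6a, without pair 2 Ly6e and Ly6k did, and without pair 3 Lypd3 and Plaur were lower in both remaining pairs. The mean ratio of Ly6d lay between -1.65 and -1.31 over 19 settings. That of Ly6a lay between 0.08 and 1.10, of Ly6e between 0.41 and 1.41, and of Ly6c1 between 0.29 and 1.71. Those of Ly6k (-0.88 to 0.93) and Lypd3 (-0.60 to 0.78) changed sign, and that of Plaur (-0.96 to -0.04) did not. Slurp1, near background, ranged from -1.10 with Agilent's processed signals to -0.12. Keeping the spots marked as outliers was chosen after seeing the data and moved Ly6e to 0.90. Without single pairs, the mean of Cd59a ranged from -0.50 (pair 3 left out) to 0.96 and that of Lypd6b from -0.95 to 0.0135 (pair 1 left out), and the cause was not tested.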
